A study of Mus musculus with 4 samples.

Results

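Heat shock proteins and their DnaJ partners were read by 127 of the 55681 non-control probes on the array, for 87 genes. They are all the probes whose gene name starts with Hsp followed by a digit or by a, b, d, e or h, with Dnaj, or with Cct and a digit from 1 to 8, or is one of Hsf1 to Hsf5. The rule used gene names and no measured value, but the members were chosen with earlier results of these data known. Of the 87 genes, 29 had at least 2 probes and 58 had 1.

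Expression was measured in LSK cells, the lineage-negative, Sca-1-positive and c-Kit-positive bone marrow fraction that holds the stem cells and multipotent progenitors of blood. The cells came from lethally irradiated recipients of E14.5 fetal liver cells, with C57B6 given as the strain background, and every group had been irradiated and transplanted in this way. WT donors gave cells collected at 16 weeks, donors with a TET2 knock-down (TET2KD) at 10 weeks, JAK2V617F transgenic donors at 16 weeks and donors with both changes (double mutant) at 13 weeks, with 5 mice per genotype. The TET2 enzyme oxidises methylated cytosine in DNA. The V617F change keeps the JAK2 kinase active and is the best known lesion of myeloproliferative disease. The means of the knock-down, the promoter of the transgene, the ages of the mice, the share of host cells left and whether the 5 mice were pooled are not given in the sources used here. WT and JAK2V617F alone share a time after transplantation, so in the other comparisons genotype and time cannot be told apart.

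Each genotype had 1 array, so no difference below has a replicate check or a p-value, and each one is between single arrays. A level is given as scaled signal, in which 1 is the 75th percentile of the array, and a difference on the log2 scale is called when it is at least 2-fold. Levels of different probes are not on a common scale. The 75th percentile lay between 120 and 144 intensity units, 49.4% to 54.7% of non-control spots were well above background, and repeated spots of a probe within an array had a log2 SD between 0.172 and 0.198. That SD covers spot-to-spot error and not the spread between animals. Where normexp is named, an alternative background correction was used, which adds an offset of 50 intensity units and so shrinks the differences of dim probes. Tet2 was at 27.3% and 56.3% of WT on TET2KD and at 60.3% and 61.6% on the double mutant by the probes measured on all 4 arrays, and at 73.1% and 105% on JAK2V617F. The other Tet2 probe was well above background on the double mutant alone. Jak2 lay between 95.8% and 110% of WT by 1 probe, which checks nothing because it is not known to read the transgene.

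HSP70 proteins bind exposed hydrophobic stretches of unfolded proteins in a cycle driven by ATP. DnaJ proteins bring them the client and start ATP hydrolysis, and HSP110 proteins reset the cycle by releasing ADP. HSP90 finishes the folding of signalling proteins, JAK2 among its known clients, while the ring-shaped chaperonins (HSPD1 with HSPE1 in mitochondria, CCT in the cytosol) fold proteins inside a chamber. HSF1 drives the cytosolic heat shock genes through heat shock elements, and a separate set of factors drives the chaperones of the endoplasmic reticulum (ER) through ER stress elements. Blood stem cells are known for low rates of protein synthesis and for their sensitivity to misfolded protein.

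These elements were looked for in the window of 250 bases before each annotated start, in RefSeq promoters of GRCm38.p6, where 70 of the 87 genes had an entry. The heat shock element, searched as GAANNTTCNNGAA with its reverse complement TTCNNGAANNTTC, was present for Hspd1, Hspe1 and Dnajb6, and in 0.466% of all 32851 promoter windows. The ER stress element, searched as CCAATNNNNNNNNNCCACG with its reverse complement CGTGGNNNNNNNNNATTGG, was present for Hspa5, Hsp90b1 and Dnajc3, and in 0.113% of the windows. A match is a run of letters and not a shown binding site, and the stress responses of the other genes cannot be read from its absence in this window. The sequences are shown so that genes with the same element can be set beside their values below.

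Hspd1 and Hspe1 are neighbours on opposite strands of chromosome 1. They point away from each other, with 215 bases between the Hspd1 start at 55087932 and the Hspe1 start at 55088148. Another annotated Hspd1 start, at 55088243, lies beyond the Hspe1 start, and its window held no match. The 30 bases at chr1:55088053-55088082 (plus strand) hold 2 overlapping matches of the heat shock element, in capitals.
Hspd1 and Hspe1: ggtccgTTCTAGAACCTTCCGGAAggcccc
The 250 bases before the start sites of the ER chaperone genes follow, at chr2:34771840-34772089 (plus strand), chr10:86705445-86705694 (minus strand) and chr14:118937682-118937931 (plus strand), each 5′ to 3′ with the ER stress element in capitals.
Hspa5: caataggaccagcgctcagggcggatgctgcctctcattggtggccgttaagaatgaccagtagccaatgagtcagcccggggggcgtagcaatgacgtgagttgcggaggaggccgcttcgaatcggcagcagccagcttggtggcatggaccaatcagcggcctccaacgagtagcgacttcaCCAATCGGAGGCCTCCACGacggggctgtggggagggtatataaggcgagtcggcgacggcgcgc
Hsp90b1: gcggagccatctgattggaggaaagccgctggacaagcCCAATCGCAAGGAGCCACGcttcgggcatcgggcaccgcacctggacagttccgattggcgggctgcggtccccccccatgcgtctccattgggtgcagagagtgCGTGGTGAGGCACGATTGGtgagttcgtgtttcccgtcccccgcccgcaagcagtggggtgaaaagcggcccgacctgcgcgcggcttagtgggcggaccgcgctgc
Dnajc3: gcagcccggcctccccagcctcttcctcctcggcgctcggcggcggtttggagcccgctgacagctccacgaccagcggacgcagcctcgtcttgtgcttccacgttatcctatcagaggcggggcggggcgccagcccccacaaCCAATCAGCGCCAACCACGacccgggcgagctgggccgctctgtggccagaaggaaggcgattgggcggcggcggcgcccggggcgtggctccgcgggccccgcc
Hsp90b1 holds the element on both strands, the farther one 212 to 194 bases before its start. In Hspa5 it lies 65 to 47 bases and in Dnajc3 105 to 87 bases before the start.

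Of the 127 probes, 79 were well above background on all 4 arrays and 17 on none, or 62.2% and 13.4%, against 39.7% and 33.1% of all non-control probes. Those on no array included both probes of Hsf3, the probe of Hsf5, and those of the small heat shock proteins Hspb2, Hspb3, Hspb7 and Hspb8. Of the 79, 43 stayed within 2-fold over the 4 arrays, or 54.4% (46.9% for all probes), and 13 spanned at least 4-fold. Among the 14 with a mean scaled signal of at least 16, 12 stayed within 2-fold, or 85.7%, against 91.3% of all probes of that level. The exceptions were Cct5 and Dnajc9.

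Measured against WT, members were called in each direction about as often as probes in general. On TET2KD 14 of the 102 compared probes were at least 2-fold higher and 16 lower (17.6% and 20.6% of all probes). On JAK2V617F 20 of 105 were higher and 15 lower (16.1% and 16.4% of all probes). On the double mutant 16 of 104 were higher and 16 lower (16.3% and 17.5% of all probes). The median difference of the members was 0.08, 0.23 and 0.09, beside -0.03, -0.01 and -0.003 over all probes compared. These comparisons share the WT array.

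Between the mutants, the double mutant was at least 2-fold above JAK2V617F on 6 of 106 probes and below on 14, where all probes gave 13.4% and 14.4%. It was above TET2KD on 16 of 99 and below on 12, where all probes gave 19.4% and 17.6%. The median member difference was -0.12 from JAK2V617F and -0.01 from TET2KD. JAK2V617F was the array with the highest value for 33 of the 79 probes measured on all 4 (41.8%, beside 23.1% of all such probes), and WT the array with the lowest for 31 (39.2%, beside 25.3%).

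**Figure D1:**
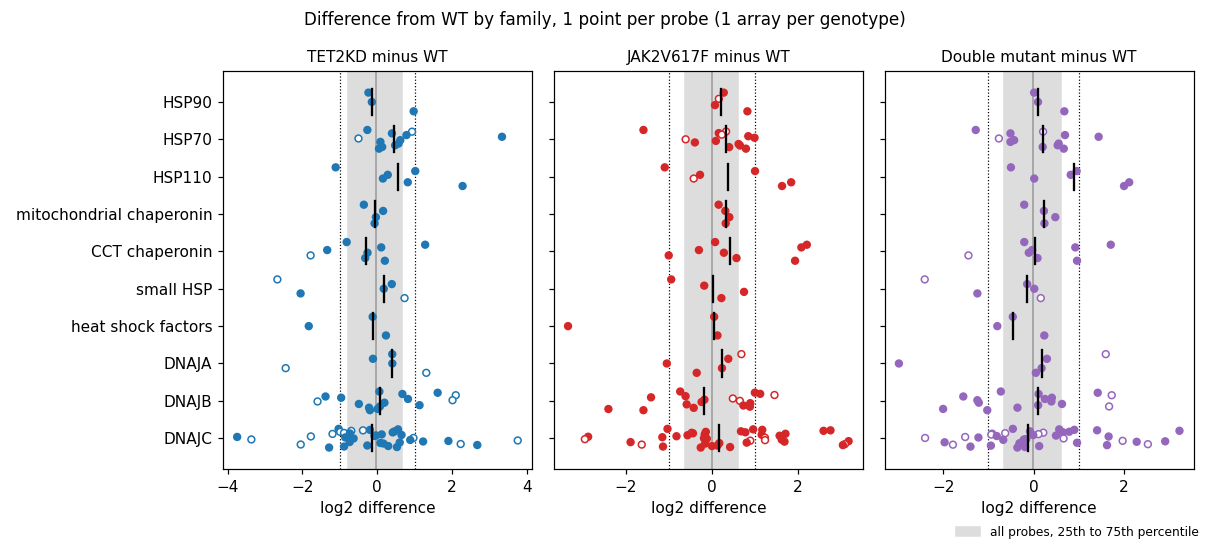
Log2 difference from WT (horizontal axis) of each member probe except those of Hspbp1 and Hspbap1, grouped by family, for TET2KD, JAK2V617F and the double mutant. Open points have 1 side not well above background, black bars are family medians, the grey band spans the 25th to 75th percentile of all probes compared and dotted lines mark 2-fold; the HSP90 and mitochondrial chaperonin points lie inside the dotted lines in all 3 panels.

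The HSP90 probes measured on all arrays stayed within 2-fold of WT. Hsp90ab1, the constitutive form, had scaled signals of 167 (WT), 151 (TET2KD), 175 (JAK2V617F) and 179 (double mutant). Hsp90aa1, the inducible form, had 15.1, 12.8, 18.2 and 15.2 in the same order. Both were lowest on TET2KD, with differences from WT of -0.14 and -0.24, close to the spot SD. Another Hsp90aa1 probe was well above background on JAK2V617F alone. Hsp90b1 (GRP94), the ER form, was at 13.4, 26.4, 23.7 and 21.5. WT was thus the low array for Hsp90b1, by 0.98, 0.82 and 0.68, none of which reached 2-fold.

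Hspa8, the constitutive HSP70 of the cytosol, was higher than WT on each mutant array by each of its 3 probes, by 0.13 to 0.65. The probe signals were 37.1, 55.2, 57.0 and 54.6, then 48.3, 67.3, 75.8 and 69.9, then 54.9, 60.1, 72.3 and 63.0, in the order WT, TET2KD, JAK2V617F and double mutant. Hspa9, the HSP70 of the mitochondrial matrix, separated the arrays by JAK2V617F instead. It was at 4.84 and 5.00 on WT and TET2KD and at 8.35 and 7.69 on JAK2V617F and the double mutant, differences from WT of 0.79 and 0.67. Hspa5 (BiP), the HSP70 of the ER, was at 36.7, 38.9, 27.9 and 25.7, lower on the arrays with JAK2V617F by 0.40 and 0.51. None of these reached 2-fold.

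The stress-inducible Hspa1a had the largest difference of the HSP70 family. Its probe (mm9 chromosome 17, 35107117 to 35107176, minus strand) had scaled signals of 0.64 on WT, 6.48 on TET2KD, 1.27 on JAK2V617F and 1.74 on the double mutant. TET2KD stood apart, 10.1-fold above WT (3.34) and 3.72-fold above the double mutant, while the double mutant was 2.72-fold and JAK2V617F 1.98-fold above WT. The accessions of this probe map to both Hspa1a and Hspa1b, near-identical genes that it cannot tell apart. With normexp background correction the differences from WT on TET2KD and the double mutant were 2.64 and 1.02. The first 30 of its 60 bases are given to identify it.
Hspa1a probe: tgacaagaagaaggtgctggacaagtgcca

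Hsph1, the inducible HSP110, was lowest on WT by both of its probes. It was at 5.21 on WT, 25.4 on TET2KD, 16.1 on JAK2V617F and 20.9 on the double mutant by the probe at mm9 chromosome 5, 150419744 to 150419803. By the probe at 150420110 to 150420169 it was at 0.86, 1.52, 3.09 and 3.75. The differences from WT were 2.28, 1.63 and 2.0 by the brighter probe and 0.82, 1.84 and 2.12 by the dimmer one. The probes differ in which mutant was highest, TET2KD by the brighter and the double mutant by the dimmer. Under normexp the differences were 2.13, 1.56 and 1.92 by the brighter probe. The first 30 bases of each are shown in this order, since they read different stretches of the transcript.
Hsph1 brighter probe: atgaactacactgcttggtcacacgctggg
Hsph1 dimmer probe: caaaaataatcttggtgctgaagctccgca

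Hspa4, the constitutive HSP110, could not be given a direction because its 3 probes, between 53073347 and 53075144 on mm9 chromosome 11, disagreed. One probe was at 9.06, 4.19, 4.24 and 6.39, another at 4.53, 9.17, 9.05 and 8.77, and the last at 4.27, 5.19, 3.52 and 7.55. The first made TET2KD 2.16-fold lower than WT and the second 2.02-fold higher, the only member probes well above background on both arrays that passed 2-fold in opposite directions for 1 gene in a comparison with WT. With dim sides included, probes of Dnajb5, Dnajc2, Dnajc21 and Dnajc25 did so too. Hspa4l was close to background, between 0.14 and 0.16 on the 3 arrays where it was measured.

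The remaining HSP70 genes were dim. Hspa14, which works with the ribosome-bound DnaJ protein Dnajc2, was at 0.45, 0.77, 0.80 and 0.72, below its mutant levels on WT by 0.70 to 0.84. Hspa2 and Hspa13 lay within 2-fold of WT on every array by the probe measured throughout, between 0.67 and 1.38 and between 0.66 and 1.24. Hspa12b, an atypical HSP70 known from endothelial cells, was at 1.27 and 1.06 on WT and TET2KD and at 0.42 and 0.52 on JAK2V617F and the double mutant, lower than WT by 1.59 and 1.28 (0.90 and 0.81 under normexp). Its other probe was not well above background on WT. Hspa1l was well above background on WT alone, and the Hspa12a probe on no array.

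**Figure D2:**
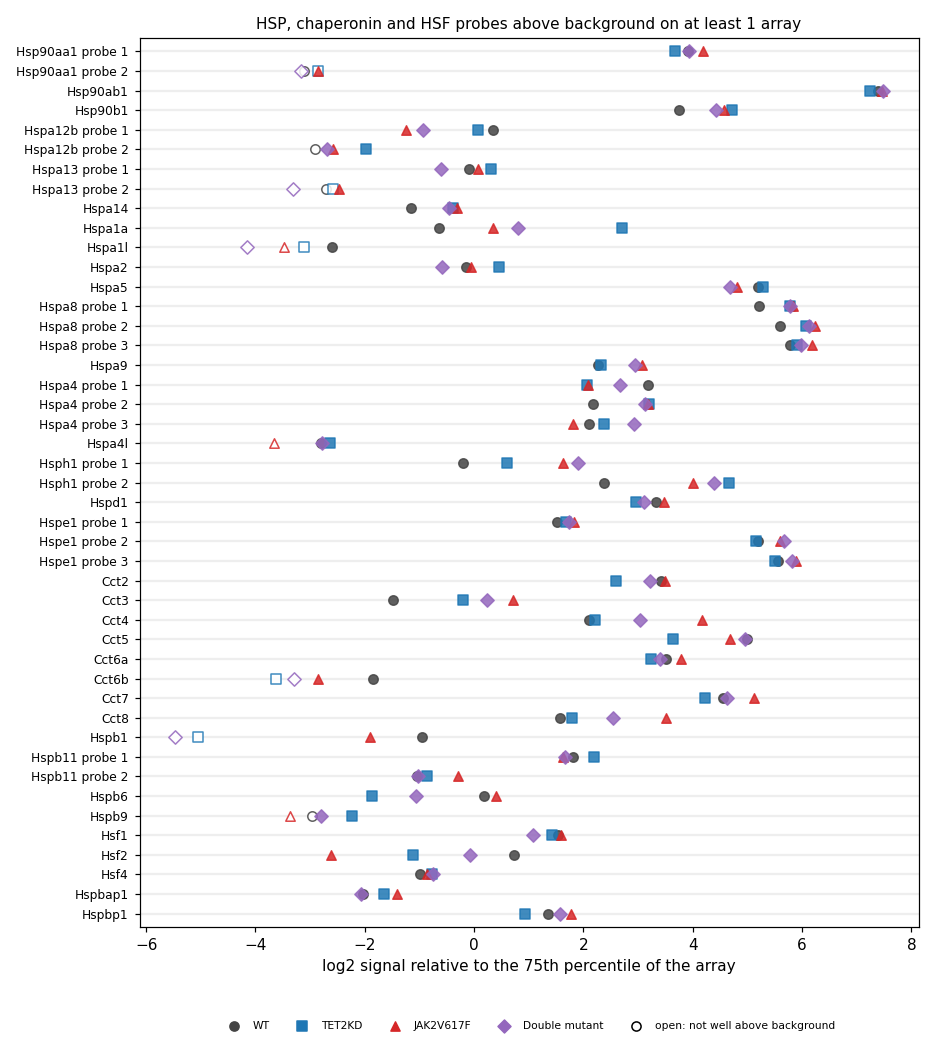
Log2 signal relative to the 75th percentile of the array (horizontal axis) for each HSP, chaperonin and heat shock factor probe that was well above background on at least 1 array, with 1 symbol per genotype. Open symbols were not well above background; the 4 symbols of Hsp90ab1 and of Hspd1 lie close together, while those of Hspa1a, Cct4, Hspb6 and Hsf2 are spread over more than 2 log2 units.

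The mitochondrial chaperonin genes stayed close to WT on every array. Hspd1 (HSP60) was at 9.97, 7.78, 11.1 and 8.64, and its cap Hspe1 (HSP10) at 36.6, 35.7, 48.4 and 51.1 by one probe, 47.4, 45.2, 59.2 and 56.0 by another, and 2.86, 3.19, 3.54 and 3.35 by the last. All 4 probes stayed within 2-fold, and JAK2V617F lay above WT by 0.15 to 0.40 on each. On the double mutant Hspd1 was below WT by 0.21 while the 3 Hspe1 probes were above it by 0.23 to 0.48. These are the genes that share the heat shock elements printed above.

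The CCT chaperonin folds actin and tubulin. Of its 7 subunits under the rule that were measured on all arrays, 6 had their highest value on JAK2V617F. Of all probes measured on all arrays, 23.1% did. Cct4 was at 4.29 on WT, 4.62 on TET2KD, 18.1 on JAK2V617F and 8.14 on the double mutant. Cct8 was at 2.99, 3.44, 11.4 and 5.82. For both, JAK2V617F was the highest array and the double mutant lay between it and the rest, with JAK2V617F 4.21-fold and 3.81-fold above WT and the double mutant 1.90-fold and 1.95-fold above it. The first 30 bases of the Cct4 probe (mm9 chromosome 11, 22901396 to 22901455) are given as an example.
Cct4 probe: agttcactgctgacatgctgggttctgctg

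Cct3 was dimmer, at 0.36, 0.87, 1.65 and 1.17, higher than WT by 1.28, 2.20 and 1.71 on TET2KD, JAK2V617F and the double mutant (0.66, 1.33 and 0.98 under normexp). Cct7, at 23.4, 18.7, 34.7 and 24.8, Cct6a, at 11.3, 9.46, 13.7 and 10.5, and Cct2, at 10.68, 6.06, 11.2 and 9.26, stayed within 2-fold of WT. Each of these was highest on JAK2V617F and lowest on TET2KD, though for Cct2 the JAK2V617F and WT values were close. Cct5, at 31.6, 12.5, 25.6 and 31.0, was lowest on TET2KD too, 2.53-fold below WT and 2.47-fold below the double mutant. Each ring holds its subunits in equal number, but the probes did not differ equally, with 2.07 for Cct4 and -0.30 for Cct5 on JAK2V617F. Tcp1, the CCT subunit whose name falls outside the rule, was at 4.87, 6.65, 10.97 and 15.9. It was highest on the double mutant, above WT by 1.17 on JAK2V617F and 1.71 on the double mutant. The testis form Cct6b was well above background on WT and JAK2V617F alone, and Cct8l1 on no array.

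Small heat shock proteins, which hold unfolded proteins without ATP, were mostly dim. Hspb1 (HSP25) was at 0.51 on WT and 0.27 on JAK2V617F and was not well above background on TET2KD and the double mutant, at least 6.37-fold and at least 5.33-fold below WT. Hspb6, at 1.13 and 1.32 on WT and JAK2V617F and at 0.27 and 0.48 on TET2KD and the double mutant, split the arrays in the same way. The arrays with the knock-down were thus the low ones for both genes. The call for Hspb1 was lost under normexp (-0.82 and -0.93), and for Hspb6 it was kept on TET2KD (-1.05) and lost on the double mutant (-0.76). Hspb11, a ciliary transport protein despite its name, stayed within 2-fold by both probes, between 3.08 and 4.57 by one and between 0.49 and 0.82 by the other. Hspb9 was near background, at most 0.21.

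Among the heat shock factors, Hsf1, the main regulator of the heat shock response, was steady at 2.91, 2.67, 3.01 and 2.11. Hsf4 was at 0.50, 0.59, 0.55 and 0.59. Hsf2 was not steady: its probe (mm9 chromosome 10, 57232832 to 57232891) had 1.65 on WT, 0.46 on TET2KD, 0.16 on JAK2V617F and 0.94 on the double mutant. Each single mutant was below WT, by 1.83 and 3.34, and the double mutant was above both, by 1.03 over TET2KD and 2.54 over JAK2V617F. Under normexp the differences from WT were -1.16 and -1.72 and that between double mutant and TET2KD was 0.55. Hspbp1, a nucleotide exchange factor of HSP70, and Hspbap1, which binds HSPB1, stayed within 2-fold, between 1.91 and 3.43 and between 0.24 and 0.38. The start of the Hsf2 probe is shown because the gene rests on it alone.
Hsf2 probe: gtattgcagtatgggaggaatatgatgctt

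The ER group has 10 genes (Hspa5, Hsp90b1, Hspa13, Dnajb9, Dnajb11, Dnajb12, Dnajb14, Dnajc1, Dnajc3 and Dnajc10), and its members did not differ in one direction. Of its compared probes, 2 of 13 were at least 2-fold higher and 2 lower on TET2KD, 3 of 14 higher and 4 lower on JAK2V617F, and 2 of 13 higher and 3 lower on the double mutant. The shares over all probes were 17.6% and 20.6%, 16.1% and 16.4%, and 16.3% and 17.5%. The group median was 0.09, 0.19 and 0.11. Dnajc3 (p58IPK), an ER DnaJ protein and inhibitor of PERK signalling, had the largest difference, at 0.41 on WT, 1.54 on TET2KD, 3.70 on JAK2V617F and 3.1 on the double mutant. It was lowest on WT and highest on the arrays with JAK2V617F, 3.74-fold, 9.01-fold and 7.55-fold above WT, and stayed at least 2-fold above it under normexp (1.19, 2.26 and 2.06). The genes with an ER stress element in the sequences above, Hspa5, Hsp90b1 and Dnajc3, thus differed from WT on JAK2V617F by -0.40, 0.82 and 3.17. The Dnajc3 probe lies at mm9 chromosome 14, 119378131 to 119378190.
Dnajc3 probe: gaaagtgaagttccaagttgtttggtcgaa

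Dnajb11 (ERdj3), which loads BiP onto clients, was at 2.61, 8.0, 5.20 and 6.99. WT was the low array here too, by 1.62, 0.996 and 1.42, of which the JAK2V617F value stopped just short of 2-fold. Another Dnajb11 probe was well above background on no array. Dnajc10 (ERdj5), a reductase of misfolded proteins, was at 3.50, 5.15, 6.80 and 5.19 by one probe and at 0.48, 0.42, 1.07 and 0.89 by the other. JAK2V617F was highest by both, 0.96 and 1.17 above WT.

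Dnajb9 (ERdj4), which represses the stress sensor IRE1, went the opposite way on the arrays with JAK2V617F. One probe was at 3.39 and 3.42 on WT and TET2KD and at 0.64 and 0.85 on JAK2V617F and the double mutant, and the other at 4.04, 3.53, 1.34 and 1.98. JAK2V617F was 5.29-fold and 3.01-fold below WT by these probes and the double mutant 4.01-fold and 2.04-fold below it. The second call on the double mutant was lost under normexp (-0.84). Accessions of the second probe also map to the gene model Gm6568. The probes lie at mm9 chromosome 12, 45307313 to 45307372 and 45308272 to 45308331, so that the call rests on separate stretches of the transcript.
Dnajb9 first probe: ccgtagaattggtgtaatggggaagattgt
Dnajb9 second probe: ttttaccaatggcaaaggacaaagaggcaa

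Dnajc1, of the ER membrane, was at 4.56 on WT, 2.23 on TET2KD, 2.23 on JAK2V617F and 3.32 on the double mutant, 1.03 below WT on each single mutant (0.91 and 0.88 under normexp). Dnajb12 and Dnajb14 anchor HSP70 at the ER membrane. Dnajb12 was dim, between 0.17 and 0.38. Dnajb14 was at 0.53, 0.20, 0.35 and 0.18 by one probe and at 2.09, 1.07, 0.79 and 2.77 by the other, and the probes disagree on the double mutant, which was lowest by the first and highest by the second.

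The ER stress genes outside the rule were taken from a list of 17 (19 probes). Of those compared, 4 of 17 were higher and 1 lower on TET2KD, 8 of 19 higher and 1 lower on JAK2V617F, and 5 of 18 higher and 2 lower on the double mutant, with medians of 0.35, 0.75 and 0.69. Over all probes 17.6% and 20.6%, 16.1% and 16.4%, and 16.3% and 17.5% were higher and lower. WT was the lowest array for 9 of the 15 probes measured on all 4, and for 25.3% of all such probes. The largest differences were those of Ero1lb, an ER oxidase, which was not well above background on WT and at 1.29, 1.64 and 1.04 on the mutants. Sdf2l1, a partner of Dnajb11, was at 13.5, 29.3, 49.5 and 35.6, and Creld2 at 2.05, 5.28, 5.92 and 5.57. Pdia6, a disulfide isomerase, was at 1.86, 3.68, 6.13 and 7.10 by the probe measured throughout. All of these were lowest on WT. Another Pdia6 probe disagreed on the double mutant. By that probe JAK2V617F differed from WT by 1.83, and the double mutant differed from JAK2V617F by -2.19. Herpud1, of ER-associated degradation, was highest on TET2KD, at 1.43, 5.78, 3.39 and 2.35, while Trib3 was well above background on WT alone. Xbp1 differed from WT by 0.82, 0.75 and 1.09, and the Atf4 probes by -0.54 to 0.50.

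BiP has exchange factors of its own, which the rule does not take in. Hyou1, the HSP110 of the ER, was at 0.20, 2.59, 2.40 and 1.89, with WT the low array by 3.70, 3.59 and 3.24. Sil1 was at 1.09 and 1.52 on WT and TET2KD and at 5.46 and 6.68 on JAK2V617F and the double mutant. It therefore split the arrays as Hspa9 did, while BiP itself was not higher on any array by more than 0.09.

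**Figure D3:**
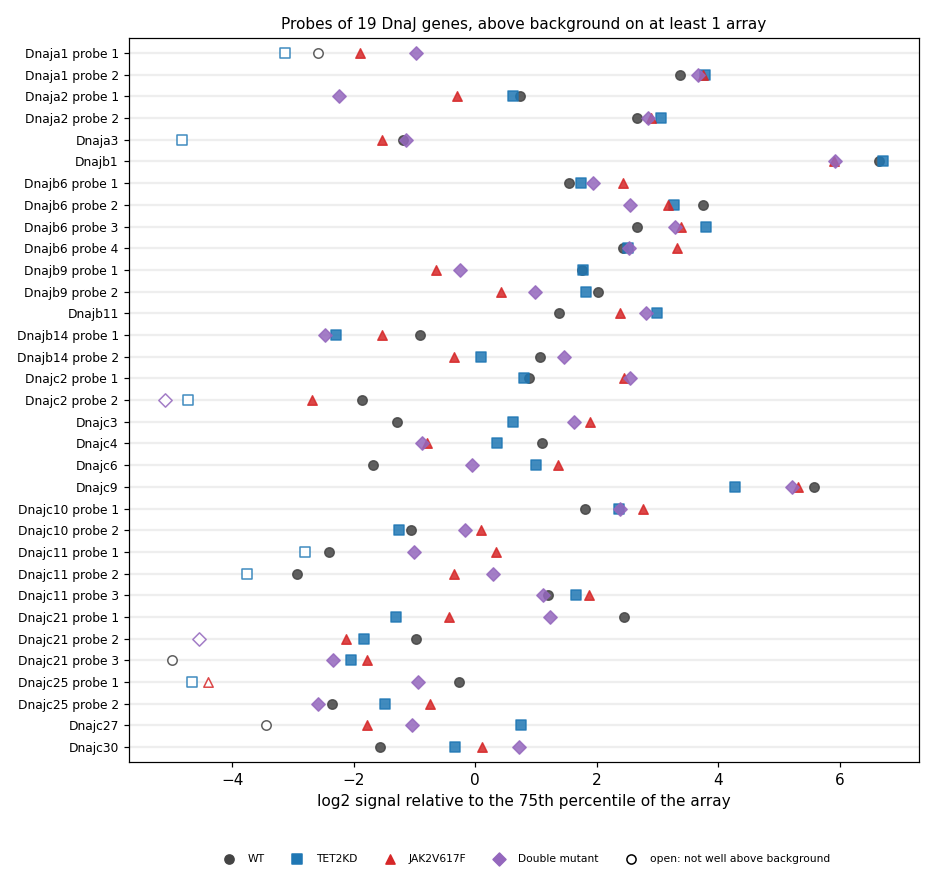
Log2 signal relative to the 75th percentile of the array (horizontal axis) for probes of a selection of the DnaJ genes, where well above background on at least 1 array. Each genotype has 1 symbol, and probes of a gene are on rows of their own. Open symbols were not well above background; Dnajc3, Dnajb11 and Dnajc30 have WT at the far left, and both rows of Dnajb9 have JAK2V617F and the double mutant on the left.

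Of the DnaJ proteins of the cytosol and nucleus, Dnajb1 (HSP40), the inducible partner of HSP70 and an HSF1 target, was at 100.5 and 104.6 on WT and TET2KD and at 60.3 and 60.7 on JAK2V617F and the double mutant. It was lower on both arrays with JAK2V617F, by 0.74 and 0.73, unlike Hspa1a and Hsph1. Immediate early genes, which respond to handling of cells, had a summed scaled signal of 1890, 1828, 1206 and 988 over 25 probes, 23 to 25 of them well above background on each array. That sum follows its brightest probes, among them Fosb (578 on WT, 428 on JAK2V617F) and Jund (325 and 114). The largest difference from WT in the list went the other way on each mutant array. It was that of Egr2, by 3.71 on TET2KD, 4.86 on JAK2V617F and 2.88 on the double mutant. On JAK2V617F Ier3 and an Ier5 probe differed from WT by 1.90 and 1.66, and Jund and Dusp1 by -1.51 and -1.05. The list's median differences from WT were 0.32, 0.01 and -0.59. On TET2KD 5 of its 24 compared probes were higher and 1 lower (17.6% and 20.6% of all probes). On JAK2V617F 4 of 24 were higher and 2 lower (16.1% and 16.4%). On the double mutant 5 of 25 were higher and 3 lower (16.3% and 17.5%). The part of the immediate early genes in the Dnajb1 difference was not tested. Dnaja1, another main partner of HSP70, was at 10.4, 13.7, 13.5 and 12.8 by its bright probe. Dnajb4 was at 3.30, 5.84, 2.92 and 3.93, and Dnajc7, which bridges HSP70 and HSP90, at 8.23, 6.85, 9.0 and 4.27, 1.08 below JAK2V617F on the double mutant.

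Dnaja2 and Dnajb6 had probes that disagreed. The bright Dnaja2 probe was steady at 6.32, 8.37, 7.42 and 7.15, while the other was at 1.67, 1.55, 0.81 and 0.21, 7.92-fold below WT on the double mutant (-1.75 under normexp). For Dnajb6, which blocks protein aggregation, 4 probes were measured on all arrays. The pair near the transcript's end overlaps and agrees: 2.92, 3.34, 5.41 and 3.84 by one, and 5.41, 5.70, 9.96 and 5.81 by the other, with JAK2V617F highest. A probe across a splice junction was at 13.5, 9.62, 9.0 and 5.83, lowest on the double mutant, and the last was at 6.34, 13.9, 10.5 and 9.80, lowest on WT. The first 30 bases of all of them are shown, with mm9 positions on chromosome 5, because the direction depends on the stretch read.
Dnajb6 at 30112861 to 30112920: caaggaggaatgtattttagtgctactgac
Dnajb6 at 30112855 to 30112911: gaccctcaaggaggaatgtattttagtgct
Dnajb6 across the junction, 30077544 to 30078952: gaagttcaaacaagtagctgaggcatatga
Dnajb6 at 30080099 to 30080158: agtccatttgagtttggcttcacattccgg

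Among DnaJ proteins tied to the ribosome, Dnajc2 (MPP11, ZRF1) was at 1.84 and 1.75 on WT and TET2KD and at 5.47 and 5.84 on JAK2V617F and the double mutant. Both arrays with JAK2V617F were thus 2.97-fold and 3.17-fold above WT, and stayed so under normexp (1.35 and 1.48). A dim second Dnajc2 probe, at 0.28 on WT, did not share this and was 1.77-fold lower on JAK2V617F and at least 2.86-fold lower on the double mutant, where it was not well above background. Dnajc21, a factor of ribosome subunit maturation, was at 5.45 on WT, 0.41 on TET2KD, 0.74 on JAK2V617F and 2.34 on the double mutant by its brightest probe (mm9 chromosome 15, 10379356 to 10379415). Each single mutant was lower than the double mutant, and all were below WT, by 3.75, 2.87 and 1.22. Another Dnajc21 probe was lowest on the double mutant, where it was not well above background, and the last was not well above background on WT.

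Dnajc9, a histone chaperone, was at 47.6, 19.5, 39.7 and 37.1, 2.44-fold lower than WT on TET2KD alone. Dnajc8, of the spliceosome, was at 7.89, 9.68, 7.90 and 8.60 by one probe, at 3.26, 4.71, 4.37 and 2.86 by another, and at 5.95, 3.22, 2.71 and 2.26 by the last. The first was steady while the last was lower than WT on every mutant, by 0.89, 1.14 and 1.40.

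Membrane and vesicle DnaJ proteins held some of the larger differences. Dnajc6 (auxilin), which uncoats clathrin vesicles, was at 0.31 on WT, 1.99 on TET2KD, 2.56 on JAK2V617F and 0.96 on the double mutant. The single mutants were the high arrays, 6.39-fold and 8.21-fold above WT, and the double mutant was 2.66-fold below JAK2V617F. Dnajc5, the cysteine string protein of secretory vesicles, was steady by its brightest probe, at 36.4, 40.8, 32.6 and 30.6. A dimmer Dnajc5 probe was not well above background on WT and at 0.58, 1.05 and 0.72 on the mutants, at least 4.70-fold, 8.49-fold and 5.78-fold above WT, and of these only JAK2V617F stayed past 2-fold under normexp (0.81, 1.29 and 0.95).

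Dnajc27, a small GTPase with a J domain, was not well above background on WT and at 1.68 on TET2KD, 0.29 on JAK2V617F and 0.49 on the double mutant. TET2KD was at least 13.5-fold above WT (1.77 under normexp). Dnajc4 was at 2.13, 1.28, 0.58 and 0.54, and the arrays with JAK2V617F were the low ones, 3.70-fold and 3.92-fold below WT. Dnajc25 could not be given a direction: one probe was at 0.83 on WT and 0.52 on the double mutant and not well above background on either single mutant, and the other was at 0.19, 0.36, 0.60 and 0.17, highest on those single mutants.

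The mitochondrial group has 8 genes (Hspd1, Hspe1, Hspa9, Dnaja3, Dnajc11, Dnajc15, Dnajc19 and Dnajc30). On JAK2V617F 4 of its 14 compared probes were at least 2-fold higher and 0 lower, on the double mutant 3 higher and 0 lower, and on TET2KD 1 higher and 1 lower, with medians of 0.36, 0.23 and -0.03. Over all probes 16.1% and 16.4% were higher and lower on JAK2V617F, 16.3% and 17.5% on the double mutant, and 17.6% and 20.6% on TET2KD. Those higher on JAK2V617F were probes of Dnajc11, Dnajc19 and Dnajc30. Under normexp only the Dnajc11 probes stayed past 2-fold there (1.38 and 1.10), while the Dnajc19 probe was at 0.91. Dnajc30, at 0.34, 0.79, 1.09 and 1.65, was lowest on WT, by 1.23, 1.68 and 2.28 (0.58, 0.88 and 1.31 under normexp). Dnajc19, of the inner membrane import motor, was at 386, 420, 344 and 384 by its brightest probe. Dimmer Dnajc19 probes gave 1.34, 2.10, 2.97 and 1.88, and 1.72, 1.69, 1.16 and 0.98, opposite in the array that was highest. Dnajc15 was at 4.49, 2.70, 3.30 and 2.37.

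Dnajc11, which shapes mitochondrial cristae, had 3 probes, 1 of them spotted 10 times on each array. That probe, with 9 or 10 spots kept, had a mean of 0.19 on WT (log2 SD 0.20) and 0.14 on TET2KD, where it was not well above background (log2 SD 0.59). It had 1.26 on JAK2V617F (log2 SD 0.05) and 0.50 on the double mutant (log2 SD 0.12). The spots of JAK2V617F, from 1.19 to 1.33, did not overlap those of the double mutant, from 0.44 to 0.54, nor these those of WT, from 0.16 to 0.24. A second probe was at 0.13, 0.79 and 1.23 on WT, JAK2V617F and the double mutant, and the brightest was at 2.29, 3.16, 3.66 and 2.17, with differences of at most 0.67 from WT. Dnaja3 (TID1) was at 0.44, 0.34 and 0.46 on WT, JAK2V617F and the double mutant and not well above background on TET2KD. It was at least 5.46-fold lower there than on WT, a call lost under normexp (-0.65).

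The other DnaJ genes were dim. Dnajb13, a testis and cilium protein, was not well above background on WT and was at 0.53, 0.34 and 0.41 on the mutants, at least 4.29-fold, 2.73-fold and 3.32-fold above WT, a call lost under normexp on each (0.70, 0.43 and 0.51). Dnajc18 was measured on WT and JAK2V617F, at 0.19 and 0.60, and not well above background on the arrays with the knock-down. Dnajb5 had probes that went opposite ways: one was not well above background on WT and at 0.50 on TET2KD, and the other was at 0.39 on WT and not well above background on TET2KD. Dnajb7 was well above background on the double mutant alone, Dnaja4 on TET2KD, Dnajb2 and Dnajc28 on JAK2V617F, and Dnajc5b on WT. Steady dim or moderate levels were those of Dnajc24, between 2.18 and 4.14 over both probes, Dnajc13, between 0.17 and 0.29, and Dnajb8, between 0.19 and 0.26. Dnajc12 was measured on 3 arrays, between 0.15 and 0.28, Dnajc14 and Dnajc16 were close to background, and Dnajb3, Dnajc5g, Dnajc17 and Dnajc22 were not well above it on any array.

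Probes were next asked whether both arrays with a genotype lay on one side of both arrays without it, with the group means at least 2-fold apart. For JAK2V617F (JAK2V617F and double mutant against WT and TET2KD) 12 of 110 member probes were above and 6 below, where all probes gave 7.24% and 7.57%. Those above were Cct3, Cct4, Cct8, Dnaja1, Dnajc2, Dnajc3, Dnajc5, Dnajc10, Dnajc30, Hsph1 and Dnajc11 by 2 probes, and those below were Dnaja2, Dnajc4, Dnajc21, Hspa12b and Dnajb9 by 2 probes. Of these, the Dnaja1 probe was well above background on 2 arrays alone, those with JAK2V617F. The Dnajc5, Dnajc11 and Dnajc21 probes were so on 3. The brightest probes of Dnaja1, Dnajc5, Dnajc10, Dnajc11 and Hsph1 were not above in this way. Nor were the brightest probes of Dnaja2 and Dnajc21 below. For TET2KD (TET2KD and double mutant against WT and JAK2V617F) 5 were above and 8 below, where all probes gave 5.14% and 8.77%. Those above were Dnajb11, Dnajb13, Dnajc27, Hspa1a and Hsph1, and those below were Cct6b, Dnajb5, Dnajb14, Dnajc2, Dnajc5b, Dnajc18, Hspb1 and Hspb6. Of the last, 2 (Hspb6 and Dnajb14) were well above background on all 4 arrays, Dnajb14 by its dimmer probe. Hsph1 and Dnajc2 are named for both genotypes, by different probes. Under normexp the counts were 6 above and 3 below for JAK2V617F and 3 above and 0 below for TET2KD, where all probes gave 2.57% and 2.44%, and 1.66% and 1.88%.

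The co-chaperones of HSP90 and HSP70, a list of 23 genes (33 probes) outside the rule, had medians of -0.18, 0.17 and 0.31 against WT on TET2KD, JAK2V617F and the double mutant, with 3, 7 and 6 probes higher and 4, 4 and 3 lower, beside 17.6%, 16.1% and 16.3% of all probes higher and 20.6%, 16.4% and 17.5% lower. Stip1 (HOP), which links HSP70 to HSP90, was at 42.7, 26.5, 27.5 and 19.6, highest on WT. Ahsa1, an activator of the HSP90 ATPase, was lowest on WT, at 13.2, 21.6, 17.5 and 22.3. Cdc37, which brings kinases to HSP90, was at 27.2, 14.4, 22.8 and 26.9, lowest on TET2KD. Fkbp4 was at 4.01, 5.10, 8.47 and 11.5 and Chordc1 at 0.72, 0.65, 1.62 and 1.70, both higher on the arrays with JAK2V617F. The exchange factor Bag2 was at 0.30, 1.21, 0.53 and 1.70, higher on the arrays with the knock-down. Ahsa2 was highest on WT, at 0.68, 0.32 and 0.24 on WT, TET2KD and JAK2V617F and not well above background on the double mutant.

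Partners of the chaperonins and of mitochondrial protein quality control (14 genes, 18 probes) had medians of -0.39, 0.15 and -0.08, with 0, 3 and 2 probes higher and 4, 2 and 3 lower, beside the same shares of all probes. Lonp1, the matrix protease, was at 1.44, 0.25, 0.76 and 0.71, and Trap1, the mitochondrial HSP90, at 1.09, 0.49, 1.04 and 0.72, both lowest on TET2KD. A separate list (6 genes, 7 probes) holds Hsbp1 and Cryab, and also Hyou1 and Sil1 named above. Its medians against WT were 0.22, 0.04 and 0.13 on TET2KD, JAK2V617F and the double mutant. Of its 6 compared probes, 1, 2 and 2 were higher and 1, 2 and 2 lower, beside the same shares of all probes. Hsbp1, an inhibitor of HSF1, was at 13.6, 6.80, 6.11 and 3.85, highest on WT. Cryab, a small heat shock protein outside the rule, was steady between 2.64 and 2.98 by one probe and well above background on WT alone by the other.

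**Figure D4:**
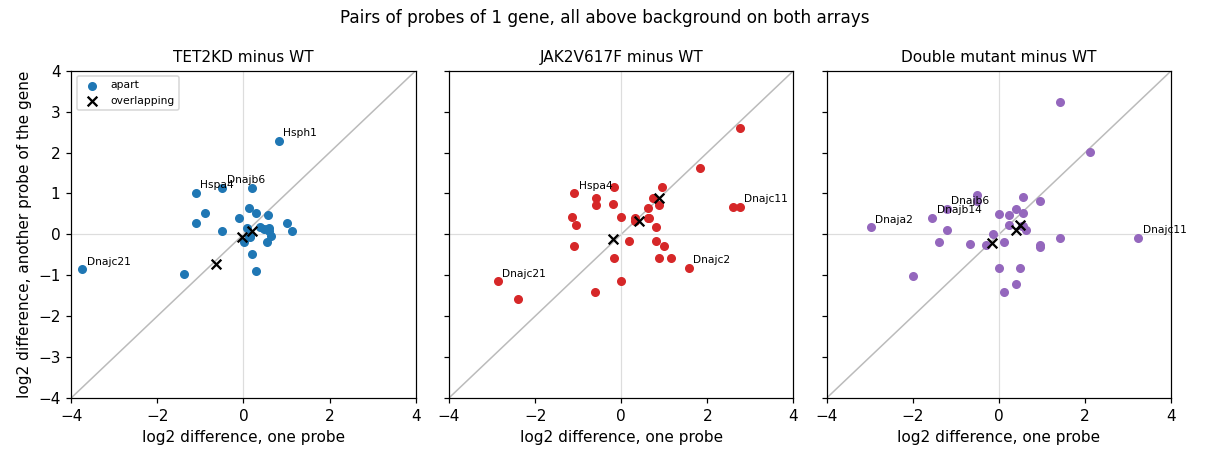
Log2 difference from WT by a probe of a gene (horizontal axis) against that by another probe of the same gene (vertical axis), for pairs in which both probes were well above background on both arrays. Crosses are overlapping probes and lie near the diagonal; points in the upper left and lower right corners, such as Hspa4 in the TET2KD panel, are probes that differ in direction.

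How far 1 probe stands for its gene was read from pairs of probes of a gene, all well above background on both arrays. On TET2KD 18 of 32 pairs had the same sign against WT, on JAK2V617F 22 of 36 and on the double mutant 19 of 35, with median gaps of 0.52, 0.81 and 0.53. The overlapping pairs of Dnajb6, Dnajc24 and Hspe1 differed by at most 0.29. Pairs share a gene and arrays, so they are not independent. Differences of the 58 genes read by 1 probe, Hspa1a, Dnajc3, Cct3, Cct4, Cct8 and Hsf2 among them, have no such check.

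The makeup of the sorted cells was read from marker lists, in the order WT, TET2KD, JAK2V617F and double mutant. Genes of the LSK gate and stem cells (12 genes, 17 or 18 of 19 probes well above background on each array) summed to 168, 129, 121 and 88.4 in scaled signal. Granulocyte and monocyte progenitor genes (10 genes, 12 to 14 of 14 probes) summed to 76.5, 137, 242 and 286, highest on the arrays with JAK2V617F. Mature neutrophil genes (12 genes, 8 to 12 of 13 probes) summed to 68.5, 101, 23.2 and 71.8, lowest on JAK2V617F. B and plasma cell genes (9 genes, 4 to 7 of 11 probes) summed to 22.7, 6.39, 4.41 and 4.18, and erythroid genes (10 genes, 6 to 10 of 12 probes) to 22.9, 36.4, 12.4 and 21.8. Megakaryocyte genes (8 genes, 8 to 10 of 12 probes) summed to 15.5, 23.0, 23.1 and 13.4, endothelial and stromal genes (8 genes, 2 to 6 of 14 probes) to 8.52, 18.2, 9.82 and 10.3, and lineage antigens (12 genes, 11 to 14 of 19 probes) to 394, 457, 369 and 370. Cd3g, Cd8a, Ebf1 and Cdh5 were not well above background on any array, nor was Slamf1. Such sums follow their brightest probes, and the median difference from WT over a list can go the other way. For B and plasma cell genes the sum follows 1 Cd79a probe, at 16.5, 0.52, 0.45 and 0.25, while the medians on TET2KD, JAK2V617F and the double mutant were 1.61, -0.16 and 0.68, with 4, 2 and 3 probes higher and 3 lower on each. For erythroid genes the lower sum on JAK2V617F follows Car2, at 14.7 on WT and 4.78 on JAK2V617F, while the medians were 1.17, 0.44 and 1.25, with 5, 1 and 6 probes higher and 1, 3 and 2 lower. The probes compared were 8, 6 and 8 for the B and plasma cell list and 9, 10 and 10 for the erythroid list. Over all probes 17.6%, 16.1% and 16.3% were higher and 20.6%, 16.4% and 17.5% lower. The medians were -0.40, -1.03 and -0.95 for the LSK gate and stem cell genes, 0.88, 2.02 and 2.53 for the granulocyte and monocyte progenitor genes and 1.02, -1.35 and 0.93 for the neutrophil genes. They were 0.24, 0.75 and -0.11 for the megakaryocyte genes, 1.89, 0.04 and -0.78 for the endothelial and stromal genes, and 0.54, 0.41 and 0.46 for the lineage antigens. The part of cell makeup in the differences above was not tested, and in a sorted pool fewer cells of a type and less RNA per cell cannot be told apart.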

How the data were processed

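The data are 4 Agilent 1-colour arrays. Per the labels' protocols, RNA from sorted cells was taken up in Trizol, amplified by NuGEN Ovation Pico WTA and labelled with Cy3. The deposited intensity values were processed, background-corrected signals of Agilent Feature Extraction 10.7.3.1, and probe coordinates were mm9, both per the file headers. The deposited series matrix holds log2 values. Each column was the log2 processed signal less 1 constant per array (0 of 55249 single-spot probes off by more than 0.001), with medians of -2.64, -2.63, -2.60 and -2.60, so genes were not centred. All arrays lay on 1 slide with 1 scan time.

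Outlier spots were left out (162 to 199 per array), the 75th percentile of the array was subtracted from log2 signals and spots of 1 probe were averaged. No spot was saturated. A probe was well above background where at least 0.5 of its spots were, and entered a comparison where this held on at least 1 array. A dim side took the higher of its own signal and the lowest signal among well-above-background probes of that array; folds from it read "at least", and counts and medians include them. Percentages over all probes follow the same rule. With 1 array per genotype no replicate spread was measured, which limits the precision, and no test was made.

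By accession, 116 probes matched their own symbol in a RefSeq table (GRCm38.p6, names only), 0 another symbol, and 11 none. A genome was not used here, so exon and UTR positions are not given. The members, lists and naming rule were chosen with earlier results of these data known. Named were the HSP, chaperonin and HSF members, the largest differences among DnaJ probes, and some but not all of the largest in each list. The other genes, and which list genes to name, were chosen after their values were seen.

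Alternatives were normexp (limma 3.58.1, R 4.3.3, offset 50) on the deposited mean and background intensity, quantile scaling, the median of detected probes as the scale, only probes detected on both arrays, no filter, 1 value per gene by mean or brightest probe, and the series matrix. Python 3.11.15 was used, and the steps were tested on simulated data.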

Additional observations from a re-analysis of the deposited data

Results flagged for a closer look

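Some member probes differed at least 2-fold in opposite directions depending on the other genotype. The difference of 2 differences was not tested, since each value is 1 array. For the JAK2V617F difference without and with TET2KD this held for 5 of the 79 member probes measured on all 4 arrays, beside 3.69% of all 22098 such probes. Dnajc21 differed by -2.87 without and by 2.52 with the knock-down, Hsf2 by -3.34 and 1.03, and Dnajb14 by -1.41 and 1.37. Dnajc6 differed by 3.04 and -1.05 and Dnajc25 by 1.62 and -1.11.

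For the TET2KD difference without and with JAK2V617F it held for 3 of the 79, beside 3.64% of all such probes. Dnajc21 differed by -3.75 and 1.65, Hsf2 by -1.83 and 2.54, and Dnajc6 by 2.68 and -1.41. The same 4 arrays give both sets, so the genes that appear in each are not independent. Dnajc21 and Dnajb14 each have another probe that did not show this. The other Dnajc25 probe, not well above background on either single mutant, differed the opposite way round, by -2.95 and 2.69 for the JAK2V617F difference and by -3.37 and 2.28 for the TET2KD difference, each a bound. Under normexp the opposite 2-fold JAK2V617F differences were kept for Dnajc21 (-2.30 and 1.69) and Dnajb14 (-1.04 and 1.08). They were lost for Dnajc25 (0.62 and -0.43), Dnajc6 (2.02 and -0.79) and Hsf2 (-1.72 and 0.55). The opposite TET2KD differences were kept for all 3 probes, Dnajc21 at -2.74 and 1.25, Hsf2 at -1.16 and 1.11, and Dnajc6 at 1.70 and -1.11.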

How the results depend on the processing

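Quantile scaling, the median of detected probes as the scale, and the series matrix values kept every count near its main value, and no called difference of a member probe changed direction under these, normexp, the stricter filter or no filter. Of 145 called differences, 65 stayed 2-fold in the same direction under each of these 6 that gave a value; the settings by gene were compared by counts alone. The main limit is the correction of dim signals. With normexp the counts against WT became 7 higher and 7 lower on TET2KD, 11 and 8 on JAK2V617F, and 8 and 7 on the double mutant (over all probes 6.99% and 8.0%, 6.45% and 6.46%, and 6.25% and 7.12%). The double mutant was then lower than JAK2V617F on 3 probes (4.73% of all probes) and was higher than TET2KD on 6 (6.55%) and lower on 4 (6.84%). The JAK2V617F pair was above on 6 and below on 3, and the TET2KD pair above on 3 and below on 0 (over all probes 2.57% and 2.44%, and 1.66% and 1.88%). With only probes detected on both arrays, TET2KD had 9 higher and 8 lower than WT, the double mutant had 9 lower than JAK2V617F and 9 higher than TET2KD, and the TET2KD pair had 3 above and 2 below. With no filter, the double mutant had 20 lower than TET2KD and the JAK2V617F pair 10 below. With the mean per gene, JAK2V617F had 13 genes higher and 7 lower than WT, the double mutant 8 lower than WT, 2 higher and 9 lower than JAK2V617F and 10 higher than TET2KD, and the pairs had 7 above and 2 below for JAK2V617F and 5 below for TET2KD. With the brightest probe per gene, JAK2V617F had 13 genes higher and 8 lower than WT, the double mutant 8 lower than WT and 10 higher and 7 lower than TET2KD, and the pairs had 6 above and 3 below for JAK2V617F and 5 below for TET2KD. Settings by gene count fewer items by construction, and so does the stricter filter. For these settings and for no filter, shares over all probes were not computed. Their counts therefore cannot be set against those of probes in general. The counts of probes highest on JAK2V617F (32 to 35), lowest on WT (29 to 32) and within 2-fold (41 to 53), added after seeing the data, stayed near 33, 31 and 43. No paired analysis was possible because each genotype has 1 array.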
